A study of Mus musculus with 8 samples.

Results

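Wild-type mouse fetal liver was compared with wild-type adult bone marrow, the sites of blood formation in the embryo and in the adult. The comparison used the 4 arrays of Col18a1+/+ mice out of 8 arrays in the series: 2 of liver at embryonic day 14.5 (E14.5) and 2 of marrow flushed from the femurs and tibias of 3-month-old males, all on the C57B6/J strain. Each array carried total RNA pooled from 2 littermates, and the embryos' sex was recorded as undetermined. Both tissues were dissociated and filtered to cell suspensions before extraction, the marrow by flushing and the liver by pipetting, and no sorting step is described. The other 4 arrays were the same tissues of Col18a1-/- mice, which lack collagen XVIII, a basement membrane collagen. All autosomal genes were examined, each through its brightest probe set (a group of short probes against 1 transcript) among those that name a single gene, which gave 17402 autosomal genes of 18194 genes in all.

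Blood formation moves through the embryo. The liver is seeded by stem cells and becomes the main site of red cell production, while its own hepatoblasts mature into hepatocytes around the blood cells. Towards birth the stem cells move to the bone marrow, where neutrophils and B lymphocytes are made in large numbers through adult life alongside red cells and platelets.

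Levels are log2 of the deposited intensity, so 1 unit is a 2-fold difference, and every difference is fetal liver minus marrow with its standard error (SE). A gene was called where limma's adjusted p was under 0.05 over all genes tested. With whole tissue, more cells of a type and more RNA per cell cannot be told apart.

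The arrays matched their tissue labels. Alb and Afp, which hepatocytes make, were above 14 in both liver arrays and under 5 in both marrow arrays, and replicate arrays of a group correlated at 0.9950 to 0.9976 against 0.8976 to 0.9065 between tissues. The pools differed in sex-linked genes as well. Xist, which is transcribed from the inactive X, was 11.04 and 11.22 in fetal liver and 4.86 and 4.78 in marrow, and the Y-linked Eif2s3y was 3.29 and 3.00 in fetal liver and 10.01 and 9.78 in marrow. Sex and tissue therefore cannot be told apart in these 4 arrays, and apart from this check and the counts over all genes, the genes described are autosomal. In the knockout arrays these genes did not separate the tissues (knockout difference 0.05 for Xist and -0.31 for Eif2s3y), and the knockout differences of the leading genes are given at the end. Col18a1 itself was 9.06 and 9.18 in fetal liver and 7.84 and 7.85 in marrow, a difference of 1.27 ± 0.13 (adjusted p = 3.52e-05).

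The tissues differed across much of the transcriptome. Of all 18194 genes, 9044 were called (49.7%): 5558 were higher in fetal liver (30.5%) and 3486 lower (19.2%). Among autosomal genes 8703 were called, 5331 higher and 3372 lower. The arrays of the tissues did not overlap in any of the 8703, so for a called gene this is no separate evidence. This split depends on the scale. The median autosomal difference was 0.13. Centring on the array median gave 0.18, and a split of 6197 higher and 3261 lower over all genes. Arrays were also centred on the mean of the 47 ribosomal protein genes. That mean takes in Rps4l (difference 2.81), while the median difference of these genes was 0.14. With it the autosomal median was -0.08, and the split over all genes turned to 3669 higher and 4878 lower. No other setting tried gave more genes lower than higher. Small differences are thus relative to the scale chosen, and the genes that differed by 2-fold or more carry the contrast. Over all genes, 1930 were called and higher by 2-fold or more (10.6%) and 1512 lower (8.31%).

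The largest differences belonged to genes that were bright in 1 tissue and dim in the other. Among autosomal genes, 291 were higher and 227 lower by 8-fold or more, 157 and 94 by 16-fold or more, and 50 and 21 by 64-fold or more. On the bright side of both tissues the picture was different: 1374 genes stood at 10 or more in both, of which 125 were called at 2-fold or more and 601 were not called. Conversely, 42 genes were at 10 or more in fetal liver and under 5 in marrow, and 12 showed the reverse. Of the 42, 31 belong to the liver and imprinted gene lists described below, and the remainder include Fabp1, which binds fatty acids in hepatocytes (8.68), Serpina1c (8.68) and Rian, a noncoding RNA of the Dlk1-Meg3 region (7.56). Of the 12, 8 are neutrophil, eosinophil or B cell genes of the lists below, and Cd72, a B cell surface receptor, was a further one (-5.69).

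**Figure D1:**
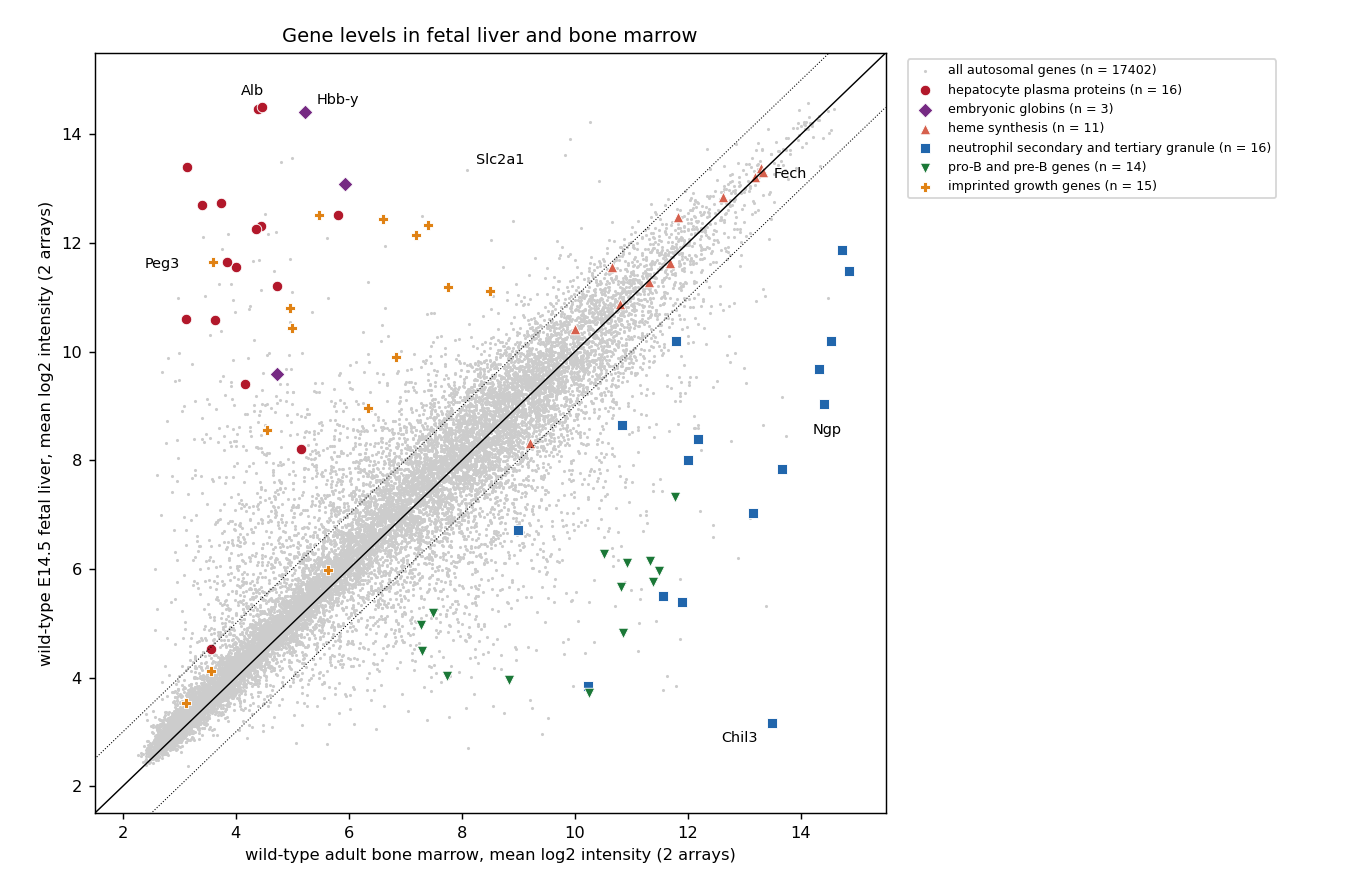
Mean log2 intensity in wild-type E14.5 fetal liver (vertical axis) against wild-type adult bone marrow (horizontal axis), 2 arrays each, for 17402 autosomal genes; each coloured set is a gene list, the solid line marks equal levels and the dotted lines a 2-fold difference. Hepatocyte plasma proteins (all but Fetub, which is dim in both) and embryonic globins lie at the upper left, and early B cell genes at the lower right. Neutrophil granule genes lie below the diagonal, 9 of the 16 at 8 or more in both tissues. The 11 heme synthesis genes lie along the diagonal within 2-fold.

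Proteins that hepatocytes secrete into plasma were among the largest differences. All 16 measured members of the hepatocyte plasma protein list were higher in fetal liver, with a median difference of 7.68 against 0.13 over all autosomal genes. Alb, the main plasma protein of the adult, was 14.42 and 14.51 in fetal liver and 4.12 and 4.65 in marrow, a difference of 10.08 ± 0.31 or 1084-fold (adjusted p = 1.43e-08). Afp, its fetal relative, was 14.54 and 14.46 in fetal liver and 4.36 and 4.56 in marrow, a difference of 10.04 ± 0.12 (adjusted p = 2.13e-10). Both genes thus stood at the bright end in fetal liver and at the dim end in marrow, and no array of the other tissue came near them. Serpina1b, an alpha-1-antitrypsin, had the largest difference of any autosomal gene higher in fetal liver at 10.26 ± 0.11, with 13.31 and 13.48 in fetal liver and 3.25 and 3.02 in marrow. It has near-identical copies such as Serpina1c, and its probe set may not tell them apart. Serpina6, which carries glucocorticoids in plasma, differed by 9.30 ± 0.14, and Rbp4, which carries retinol, by 9.0 ± 0.29. The transthyretin gene Ttr was high in fetal liver too (12.52 against 5.82). The smallest differences were those of Itih1 (3.05 ± 0.29) and Fetub (0.96 ± 0.22), and Fetub stayed under 5 in all 4 arrays.

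Promoter sequences of the leading genes are shown because hepatic and myeloid genes are known to be read by different transcription factors. Each line gives the 150 bases before the RefSeq transcription start (GRCm38.p6), 5′ to 3′ in the direction of the gene. Capitals mark the letters GTTAAT, a half-site of the hepatocyte factor HNF1, on either strand, in 3 genes high in fetal liver.
Alb (chr5:90460720-90460869, plus strand): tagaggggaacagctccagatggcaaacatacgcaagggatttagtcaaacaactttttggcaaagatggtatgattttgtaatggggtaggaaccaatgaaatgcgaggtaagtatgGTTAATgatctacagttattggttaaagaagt
Afp (chr5:90490564-90490713, plus strand): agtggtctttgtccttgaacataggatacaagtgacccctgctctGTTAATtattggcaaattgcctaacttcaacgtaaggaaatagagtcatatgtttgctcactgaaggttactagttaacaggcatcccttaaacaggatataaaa
Serpina1b (chr12:103738190-103738339, minus strand): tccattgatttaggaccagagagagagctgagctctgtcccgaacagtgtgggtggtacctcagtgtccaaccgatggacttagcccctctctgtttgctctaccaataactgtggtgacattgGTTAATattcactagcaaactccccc
The next pair are neutrophil granule genes high in marrow, chosen because they hold the letters TTGCNNAA of the C/EBP factors on either strand, which the capitals mark.
Ltf (chr9:111019142-111019291, plus strand): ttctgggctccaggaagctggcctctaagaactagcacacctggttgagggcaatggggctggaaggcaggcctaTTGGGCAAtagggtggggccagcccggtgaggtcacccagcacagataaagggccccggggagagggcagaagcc
Ngp (chr9:110419658-110419807, plus strand): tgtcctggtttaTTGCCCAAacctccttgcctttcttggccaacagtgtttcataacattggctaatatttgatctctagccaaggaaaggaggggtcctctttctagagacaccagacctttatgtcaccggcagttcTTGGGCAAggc
Promoters of 300 bases (250 before the start to 50 after it) were held for 13833 of the 17402 autosomal genes. GTTAAT occurred on either strand in 27.3% of the 121 genes with a promoter that were higher by 16-fold or more, in 4.05% of the 74 genes lower by 16-fold or more, and in 6.2% of all 13833. TTGCNNAA occurred in 21.5% and 20.3% of those sets against 10.7% of all. GAGGAAGT, a site of the myeloid and B cell factor PU.1, occurred in 0 of the 121 and 7 of the 74 genes (9.46%) against 3.43% of all. The remaining motifs searched were TGTTTAC for FOXA (7.44%, 6.76% and 3.37%), AGATAA for GATA (14.9%, 8.11% and 9.41%) and CCCNNGGGA for EBF1 (11.6%, 5.41% and 9.09%). These shares describe letters within these windows. Neither binding nor its part in the differences was measured, and the motifs were not screened for overlap with each other.

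Lipid carriers and clotting factors followed the plasma proteins. Of 13 apolipoprotein genes 12 were higher (median 5.30), and of 17 coagulation genes 15 were higher (median 6.11). Apoa1, the main protein of high-density lipoprotein, was 13.47 and 13.53 in fetal liver and 4.42 and 5.18 in marrow, and its difference was 8.70 ± 0.25. Apob, the scaffold of low-density lipoprotein, differed by 8.32 ± 0.24. Apoe stands apart within this list because marrow expressed it as well, at 11.53 and 11.59 in fetal liver and 8.72 and 8.72 in marrow, and its difference was smaller at 2.84 ± 0.12. The 3 fibrinogen chains Fga, Fgb and Fgg, which form the clot, were higher by 8.0, 7.04 and 8.13. Plasminogen (Plg), which dissolves the clot, was higher by 8.03 ± 0.11, prothrombin (F2) by 6.75 ± 0.13 and antithrombin (Serpinc1) by 7.59 ± 0.17. F5, the cofactor of prothrombin activation that platelets also store, was not called, with 9.15 and 9.19 in fetal liver and 9.29 and 9.03 in marrow (difference 0.01 ± 0.17, adjusted p = 0.96).

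Complement genes split. Of 14 members 10 were higher, 1 lower and 3 not called. Cfi and Hc (C5), which circulate from the liver, were higher by 7.37 ± 0.15 and 5.89 ± 0.14, and the C8 chains C8a, C8b and C8g by 4.08, 2.81 and 4.43. The C1q chains, which macrophages make, did not follow. C1qa was lower in fetal liver (-1.02 ± 0.11, adjusted p = 6.37e-05), and C1qb (0.10 ± 0.15) and C1qc (-0.05 ± 0.14) were not called.

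Hepatocyte identity factors were higher at more modest levels. Of 15 hepatic transcription factors 13 were higher, 1 lower and 1 not called, with a median of 2.28. Foxa3, which opens liver chromatin with its relatives, was 8.23 and 8.54 in fetal liver and 3.57 and 3.25 in marrow (difference 4.98 ± 0.15), and Foxa1 and Foxa2 differed by 3.46 and 3.13. Hnf4a, a nuclear receptor that hepatocytes require, was 9.04 and 9.07 in fetal liver and 5.81 and 6.04 in marrow (difference 3.14 ± 0.17), and Prox1, needed for hepatoblast migration, differed by 4.32 ± 0.17. Hhex, which acts in both liver and blood cells, was the member lower in fetal liver (-0.60 ± 0.14, adjusted p = 0.00616), at 9.01 against 9.61 in marrow. Cebpa, which serves hepatocytes and granulocytes alike, was higher by 0.95 ± 0.12. Of 13 hepatoblast and epithelial genes 10 were higher, led by the keratins Krt8 (6.69 ± 0.16) and Krt18 (4.99 ± 0.10) and by Dlk1, a surface marker of hepatoblasts (5.84 ± 0.19). Sox9, a marker of bile duct cells, stayed between 3.77 and 4.29 in all 4 arrays and was not called.

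Metabolic enzymes of the adult liver were present in part. Of 13 urea cycle and amino acid genes 10 were higher. Bhmt, which remethylates homocysteine, was 10.78 and 10.69 in fetal liver and 3.81 and 4.16 in marrow (difference 6.75 ± 0.18), and the tyrosine breakdown enzymes Hgd, Fah and Hpd differed by 4.83, 4.48 and 4.37. Cps1, which starts the urea cycle, differed by 2.33 ± 0.19 but reached only 6.49. Some enzymes known for their strong rise around birth were at the low end in both tissues: Tat was 5.35 and 5.00 in fetal liver and 4.65 and 4.94 in marrow (adjusted p = 0.0591), Tdo2 was 4.37 and 4.64 in fetal liver and 4.51 and 4.57 in marrow (adjusted p = 0.817), and the gluconeogenic Pck1 and G6pc were under 4 in all 4 arrays. In contrast the glucose transporter of hepatocytes Slc2a2 was 9.998 and 9.97 in fetal liver and 3.11 and 2.88 in marrow (difference 6.99 ± 0.11), and the liver glycogen synthase Gys2 differed by 5.20 ± 0.13.

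Cholesterol synthesis genes were higher without exception. All 14 members passed the test, 13 by 2-fold or more, with a median of 2.23. Hmgcs1, which makes the precursor of mevalonate, was 12.49 and 12.34 in fetal liver and 8.92 and 8.88 in marrow (difference 3.51 ± 0.10). Lss and Cyp51, which build and trim the sterol ring, differed by 3.70 ± 0.16 and 3.60 ± 0.11, and Sqle by 2.69 ± 0.11. Unlike the plasma proteins these genes were expressed in marrow too, with array medians of 7.58 and 7.47 against 9.94 and 9.96 in fetal liver. The regulator Srebf2 had the smallest difference (0.36 ± 0.10, adjusted p = 0.015). Among 73 cytochrome P450 genes 23 were higher (31.5%, about the 30.5% of all genes) and 4 lower (5.48%), and 54 were under 6 in both tissues. Cyp2d10 (5.40 ± 0.14) and Cyp2c68 (5.11 ± 0.14), of drug-metabolising families, led the higher ones, and Cyp4f18, which inactivates leukotriene in neutrophils, was the lowest (-3.64 ± 0.31).

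**Figure D2:**
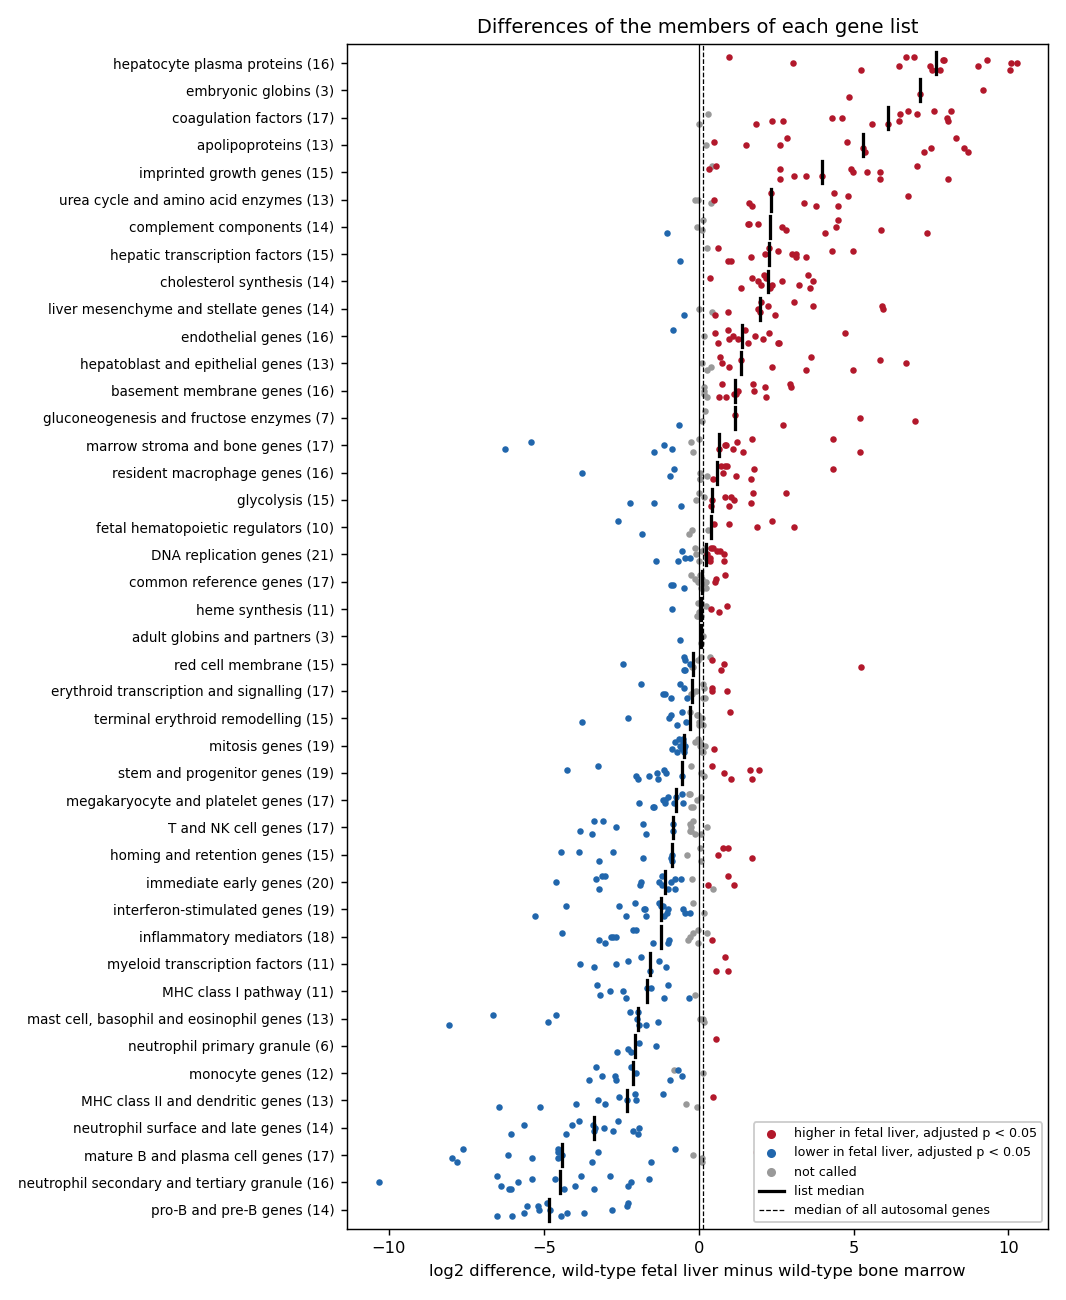
Log2 difference (wild-type fetal liver minus wild-type bone marrow) of each measured member of 43 gene lists, ordered by list median (black bar), with the number of members in brackets; red and blue points passed the test and grey points did not. Liver lists lie to the right with medians up to 7.68, pro-B and pre-B genes to the left at -4.84, and erythroid and cell cycle lists around 0.

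Embryonic globins also separated the tissues, by smaller differences than albumin. All 3 were higher in fetal liver. Hbb-y, the beta-like globin of embryonic red cells, was 14.39 and 14.43 in fetal liver and 5.19 and 5.28 in marrow, a difference of 9.18 ± 0.10 or 579-fold (adjusted p = 1.74e-10). Hbb-bh1, which is expressed in the same early red cells, was 13.17 and 12.99 in fetal liver and 6.08 and 5.78 in marrow (difference 7.15 ± 0.16), and the alpha-like Hba-x was 9.67 and 9.51 in fetal liver and 4.8 and 4.65 in marrow (difference 4.87 ± 0.24). No array of marrow overlapped an array of fetal liver in these genes, as in every called autosomal gene. Adult globins did not separate the tissues in this way: Hbb-b2 was 11.55 and 11.73 in fetal liver and 11.51 and 11.46 in marrow (difference 0.15 ± 0.14, adjusted p = 0.385). Hba-a2 was slightly lower in fetal liver (-0.62 ± 0.14, adjusted p = 0.00461). The probe set of Hba-a1 was dim in all 4 arrays, with 3.80 and 3.95 in fetal liver and 3.71 and 3.92 in marrow (adjusted p = 0.689). The adult globin genes are near-identical copies, and probe sets that name several of them were not used, so these values are uncertain for the single gene.

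Genes of red cell formation were bright in both tissues. Of 58 genes in the heme, membrane, transcription factor and terminal erythroid lists, 50 differed by less than 2-fold and 53 were at 8 or more in both tissues. The share within 2-fold was 86.2%, near the 81.0% of all autosomal genes and the 84.5% of those at 8 or more in both tissues. Called members numbered 11 higher and 21 lower (55.2%, against 49.7% of all genes), with a median of -0.04. Fech, which inserts iron into heme, was 13.33 and 13.27 in fetal liver and 13.33 and 13.32 in marrow (difference -0.02 ± 0.09, adjusted p = 0.854). Klf1, the master factor of the red cell programme, was 12.28 and 12.30 in fetal liver and 12.10 and 12.18 in marrow (difference 0.15 ± 0.10, adjusted p = 0.256). The transferrin receptor Tfrc was 13.51 and 13.40 in fetal liver and 13.25 and 13.24 in marrow (adjusted p = 0.123). These 3 genes thus lay within 0.3 of each other in the 2 tissues. The median of the 11 heme synthesis genes was 11.61 and 11.64 in the liver arrays and 11.64 and 11.73 in the marrow arrays. Heme members that did pass the test were Cpox (0.90), Alad (0.67) and Slc25a38 (0.41), which were higher, and the housekeeping isoform Alas1 (-0.87). The medians of the heme and adult globin lists, 0.08 and 0.06, fall below 0 when arrays are centred on ribosomal protein genes (-0.13 and -0.15).

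A few members of these lists differed strongly. Slc2a1 (GLUT1), the glucose transporter of human red cells and of red cells in fetal mice, was 13.32 and 13.38 in fetal liver and 8.18 and 8.01 in marrow, a difference of 5.25 ± 0.11 or 38.1-fold (adjusted p = 2.11e-09). The water channel Aqp1 was lower, at 10.26 and 10.33 in fetal liver and 12.70 and 12.75 in marrow (difference -2.43 ± 0.10). Among late erythroid genes Bpgm, which makes the 2,3-bisphosphoglycerate that loosens the grip of haemoglobin on oxygen, was 10.86 and 10.99 in fetal liver and 13.23 and 13.18 in marrow (difference -2.28 ± 0.11). Alox15, a lipoxygenase of reticulocytes and eosinophils, was 4.35 and 4.38 in fetal liver and 8.14 and 8.13 in marrow (difference -3.77 ± 0.09). Eosinophil genes were also low in fetal liver (below), and their part in the Alox15 difference was not tested. Steap3, which reduces iron, was the 1 late member higher in fetal liver (1.01 ± 0.15).

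Erythroid regulators tilted towards marrow. Of 17 members 7 were lower (41.2%, against 19.2% of all genes), 3 higher (17.6%, against 30.5% of all genes) and 7 not called. Myb, which keeps progenitors dividing, was 10.78 and 10.77 in fetal liver and 12.62 and 12.63 in marrow (difference -1.85 ± 0.09, adjusted p = 2.72e-07). Bcl11a and Sox6, which silence embryonic globins in adult red cells, were lower, with differences of -0.89 ± 0.09 and -1.09 ± 0.09. Bcl11a is also a B cell gene, and its probe sets disagree: the brightest gave the value above, and some of the dimmer ones pointed the other way, the clearest of them at 9.64 in fetal liver and 9.16 in marrow. Ldb1 (0.91 ± 0.11), Gfi1b (0.42 ± 0.11) and Epor, the erythropoietin receptor (0.42 ± 0.10), were the higher members.

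Imprinted growth genes, which are expressed from a single parental copy and are known to fall after birth, were the third group high in fetal liver. Of 15 members 14 were higher and 12 by 2-fold or more, with a median of 3.99. Igf2, the fetal growth factor, was 12.57 and 12.48 in fetal liver and 5.56 and 5.39 in marrow (difference 7.05 ± 0.16, adjusted p = 2.97e-09). Peg3 was 11.65 and 11.65 in fetal liver and 3.89 and 3.29 in marrow (difference 8.06 ± 0.19). Cdkn1c, a growth-restraining cell cycle inhibitor, was 12.56 and 12.35 in fetal liver and 6.53 and 6.69 in marrow (difference 5.84 ± 0.11). No array overlapped between tissues in these 3 genes, as in every called autosomal gene. Mest (5.43), Plagl1 (4.97), Grb10 (4.92), Phlda2 (3.99) and the noncoding Meg3 (3.45) differed in the same direction, as did Dlk1, which the hepatoblast list also holds. The Igf2 receptor that clears the hormone, Igf2r, was higher by 2.61 ± 0.13. The other probe sets of Meg3 reached 7.37, and those of Ndn 5.63, above the values of the chosen ones. Ndn (2.62), Dcn (3.06), Zim1 (0.56) and Slc22a18 (0.35) completed the 14, and Peg10 (0.42 ± 0.27) was not called at a level under 4 in all arrays.

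Regulators of the fetal blood programme did not move as a group. Of 10 members 5 were higher, 2 lower and 3 not called. Hmga2, which supports self-renewal of fetal stem cells, was 8.89 and 8.60 in fetal liver and 5.76 and 5.57 in marrow (difference 3.08 ± 0.12), and the RNA-binding proteins Igf2bp3 and Igf2bp1 differed by 2.35 ± 0.10 and 0.98 ± 0.10. The other probe sets of Igf2bp1 gave larger differences of 4.64, 3.17 and 5.30, so the value of its chosen one stands apart. Mycn (1.87 ± 0.20) and Sox17 (0.50 ± 0.16) were higher too, and the other probe set of Sox17 gave 3.03, with 6.95 in fetal liver and 3.92 in marrow. Lin28b, which holds fetal identity upstream of Hmga2, stayed between 2.52 and 3.03 in all 4 arrays (adjusted p = 0.209), which is the low end of the scale. Lin28a was lower (-1.82 ± 0.31), with 4.62 and 4.05 in fetal liver and 6.06 and 6.24 in marrow, and its other probe set gave means of 4.04 and 4.06. Sox4, a factor of early B cells, was 9.54 and 9.52 in fetal liver and 12.13 and 12.14 in marrow (difference -2.61 ± 0.10). Arid3a (-0.32 ± 0.14) and Ezh2 (-0.23 ± 0.11) were not called.

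Genes used to define stem and progenitor cells went in both directions. Of 19 members 10 were lower (52.6%, against 19.2% of all genes), 6 higher (31.6%, near the 30.5% of all genes) and 3 not called. Kit, the receptor of stem cell factor, was not called, with 8.34 and 8.14 in fetal liver and 8.17 and 8.19 in marrow (adjusted p = 0.646). Mecom (1.94 ± 0.13) and Hlf (1.73 ± 0.11), transcription factors of stem cells, were higher in fetal liver. Tek (1.64 ± 0.33), Procr (1.05 ± 0.15), Cd34 (0.80 ± 0.10) and Meis1 (0.42 ± 0.15, but -0.01 averaged over its probe sets) were higher as well. Tek, Procr and Cd34 are also expressed by endothelium, whose list was higher (below). The part of endothelium or other cells in any of the 6 higher members was not tested. Cd48, carried by most leukocytes, was 6.07 and 6.50 in fetal liver and 10.59 and 10.45 in marrow (difference -4.24 ± 0.14). Cd93 (-3.25 ± 0.12), Runx1 (-2.02 ± 0.11) and Erg (-1.97 ± 0.19) were lower. The brightest probe set of Hoxa9 was not called (0.16 ± 0.10), while another gave 4.91 in fetal liver and 7.18 in marrow. Across 33 Hox genes 30 were under 6 in both tissues, and Hoxb2 (1.46 ± 0.18) and Hoxa5 (0.85 ± 0.14) had the largest differences.

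**Figure D3:**
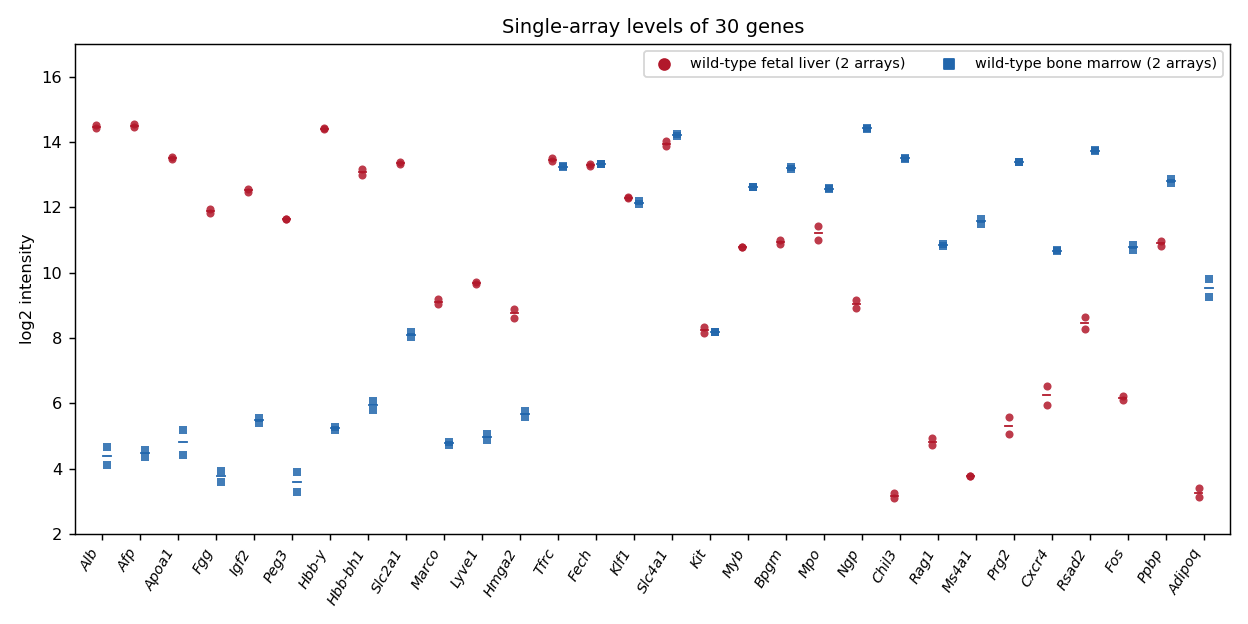
Log2 intensity of 30 genes on each of the 4 wild-type arrays (circles fetal liver, squares bone marrow, short bars the mean of 2 arrays). Liver, imprinted and embryonic globin genes are high in fetal liver, Tfrc, Fech, Klf1 and Kit stand at the same height in both tissues, and neutrophil, B cell and eosinophil genes are high in marrow; replicates lie close together.

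Neutrophil genes were nearly all lower in fetal liver than in marrow. Of 36 genes on the 3 neutrophil lists 35 were lower in fetal liver, 1 was higher and 0 were uncalled. The lists differed in depth: the median was -2.05 over the 6 primary granule genes, which promyelocytes express, and -4.48 over the 16 genes of secondary and tertiary granules, which are made later. Mpo, the myeloperoxidase of primary granules, was 10.99 and 11.42 in fetal liver and 12.57 and 12.58 in marrow (difference -1.37 ± 0.16). Ctsg, Elane and Prtn3, its serine proteases, were lower, with differences of -2.64 ± 0.19, -2.28 ± 0.12 and -2.17 ± 0.17. Chil3, a chitinase-like protein, was 3.10 and 3.25 in fetal liver and 13.47 and 13.52 in marrow, a difference of -10.33 ± 0.12 or 1284-fold (adjusted p = 1.74e-10), the largest of any autosomal gene lower in fetal liver. Ltf (lactoferrin), whose promoter is shown above, was 7.53 and 8.15 in fetal liver and 13.64 and 13.71 in marrow (difference -5.83 ± 0.18), and Ngp was 8.92 and 9.16 in fetal liver and 14.44 and 14.39 in marrow (difference -5.38 ± 0.11). Mmp8 (-6.51 ± 0.30), Cd177 (-6.39 ± 0.13) and Lcn2 (-6.13 ± 0.15) followed. Fetal liver was not without such transcripts: S100a8 and S100a9 were still 11.87 and 11.49 there, against 14.72 and 14.86 in marrow. The member that was higher, Nkx2-3 (0.55 ± 0.10), is a homeobox factor and no granule protein, and its mean was 6.0 in fetal liver.

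Surface and late genes of mature neutrophils, most of them receptors, were low in fetal liver as well, with a median between those of the granule lists. All 14 on this list were lower by 2-fold or more (median -3.36). Itgam (CD11b) was 3.61 and 3.55 in fetal liver and 9.20 and 9.21 in marrow (difference -5.63 ± 0.11), the formyl peptide receptor Fpr2 differed by -6.05 ± 0.24, the chemokine receptor Cxcr2 by -3.41 ± 0.23 and the growth factor receptor Csf3r by -3.06 ± 0.10. Of 11 myeloid transcription factors 8 were lower (72.7%, against 19.2% of all genes) and 3 higher (27.3%, near the 30.5% of all genes). Klf4 (-3.84 ± 0.18) and Irf8 (-3.37 ± 0.14), factors of monocytes and dendritic cells, were the lowest, Cebpd (-2.67 ± 0.09) and Gfi1 (-2.27 ± 0.20) followed, and Spi1 (PU.1) was 5.73 and 5.93 in fetal liver and 7.46 and 7.37 in marrow (difference -1.58 ± 0.11). The higher ones were Cebpa, Irf5 (0.56 ± 0.12) and Id2 (0.85 ± 0.17), and the dimmer probe sets of Id2 gave lower means in fetal liver than in marrow (8.82 against 9.06 and 4.90 against 6.57). Averaged over all its probe sets, the difference of Irf5 was -0.06.

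Monocytes and resident macrophages parted. Of 12 monocyte genes 10 were lower and 2 not called, with Ccr2, the receptor that releases monocytes from marrow, at -3.53 ± 0.18, and Lgals3 at -3.30 ± 0.11. Of 16 resident macrophage genes 9 were higher (56.2%, against 30.5% of all genes), 3 lower (18.8%, near the 19.2% of all genes) and 4 not called. Marco, a scavenger receptor, was 9.03 and 9.18 in fetal liver and 4.82 and 4.73 in marrow (difference 4.33 ± 0.15, adjusted p = 3.07e-08). Cd5l, secreted by tissue macrophages, was higher by 1.8 ± 0.13, Timd4, which binds dying cells, by 0.84 ± 0.11, and Clec4f, a marker of liver macrophages, by 0.92 ± 0.18. Dnase2a, which digests the nuclei that red cells expel, was higher by 1.69 ± 0.22. The pan-macrophage Adgre1 (F4/80) was not called, with 8.52 and 8.61 in fetal liver and 8.54 and 8.50 in marrow (adjusted p = 0.755), nor was the adhesion molecule Vcam1 (adjusted p = 0.722). Cd163, the haemoglobin scavenger receptor, went the other way with 4.09 and 3.90 in fetal liver and 7.66 and 7.84 in marrow (difference -3.75 ± 0.12).

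B lymphocyte genes were mostly dim in fetal liver. All 14 pro-B and pre-B genes were lower by 2-fold or more (median -4.84), and of 17 mature B and plasma cell genes 13 were lower, 1 higher and 3 not called (median -4.41). Rag1, which rearranges antigen receptor genes, was 4.72 and 4.93 in fetal liver and 10.87 and 10.83 in marrow (difference -6.02 ± 0.18). Ebf1, which commits cells to the B lineage, was 3.33 and 4.11 in fetal liver and 10.26 and 10.23 in marrow (difference -6.52 ± 0.27). Il7r, the receptor of their growth factor, differed by -5.15 ± 0.18, and the surrogate light chains Vpreb1 and Igll1 by -4.80 ± 0.20 and -4.24 ± 0.20. Ms4a1 (CD20) was 3.78 and 3.78 in fetal liver and 11.63 and 11.50 in marrow (difference -7.79 ± 0.21), Pou2af1 differed by -7.95 ± 0.16, Spib by -7.61 ± 0.12 and the IgM heavy chain Ighm by -6.16 ± 0.16. Not every member was at the dim end in fetal liver: Ighm still had a mean of 6.94 there, and Bach2, which restrains plasma cell formation, 7.32 against 11.78 in marrow. Sdc1, which marks plasma cells and is also made by epithelium, was the member higher in fetal liver (1.86 ± 0.12), and the plasma cell factors Prdm1 (-0.18 ± 0.17) and Xbp1 (0.09 ± 0.13) were not called. Jchain, of the same list, was lower, at 3.91 and 4.41 in fetal liver and 8.69 and 8.71 in marrow (difference -4.54 ± 0.24).

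T and NK cell genes were lower in fetal liver or dim in both tissues. Of 17 members 9 were lower and 8 not called, and 9 were under 6 in both. Cd2 (-3.83 ± 0.16), Ccl5 (-3.43 ± 0.13), Nkg7 (-3.39 ± 0.10) and Gzma (-3.10 ± 0.13) were the lowest, and Cd4 (-0.23 ± 0.14) and Cd8a (0.28 ± 0.11) were not called. Antigen presentation genes were mostly lower. Of 13 MHC class II and dendritic genes 10 were lower, with H2-Aa at 5.75 and 5.77 in fetal liver and 11.06 and 10.71 in marrow (difference -5.13 ± 0.20) and H2-Ob, which B cells express, at -6.45 ± 0.20. Of 11 MHC class I genes 10 were lower (median -1.68). B2m, the light chain of class I molecules, was 10.97 and 11.09 in fetal liver and 13.41 and 13.34 in marrow (difference -2.34 ± 0.10), H2-K1 differed by -1.68 ± 0.10, the immunoproteasome subunit Psmb8 by -3.20 ± 0.09 and Nlrc5, which activates class I genes, by -3.28 ± 0.18.

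Interferon-stimulated genes were lower in fetal liver in 17 of 19 cases (median -1.21), and none was higher. Rsad2 (viperin) was 8.26 and 8.64 in fetal liver and 13.75 and 13.72 in marrow (difference -5.28 ± 0.13, adjusted p = 4.94e-09), and all 3 of its probe sets gave differences of -5.28 or below. Ifi27l2a differed by -4.27 ± 0.14, Xaf1 by -2.58 ± 0.17, Ifit1 by -2.35 ± 0.29 and Irf7, which amplifies the response, by -1.27 ± 0.23. The RNA sensor Ifih1 (-0.19 ± 0.19) and Gbp2 (0.18 ± 0.12) were not called. Neutrophil and B cell genes moved the same way, and their part in the difference was not tested.

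Eosinophil and basophil genes belonged to marrow as well. Of 13 members 10 were lower, all by 2-fold or more. Prg2, the major basic protein of eosinophil granules, was 5.05 and 5.57 in fetal liver and 13.38 and 13.39 in marrow (difference -8.07 ± 0.16), eosinophil peroxidase (Epx) differed by -6.64 ± 0.11 and the basophil protease Mcpt8 by -4.61 ± 0.13. The connective tissue mast cell proteases Mcpt4, Cma1 and Tpsb2 were under 5 in all 4 arrays and not called.

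Platelet genes differed by less. Of 17 megakaryocyte genes 11 were lower, 6 were not called and none was higher (median -0.75). Ppbp, a platelet chemokine, was 10.81 and 10.98 in fetal liver and 12.88 and 12.75 in marrow (difference -1.92 ± 0.10), and Tubb1, the platelet tubulin, differed by -1.48 ± 0.14. Pf4, a further platelet chemokine, was not called, with 11.41 and 11.34 in fetal liver and 11.80 and 11.44 in marrow (adjusted p = 0.159). Marrow array 1 read above marrow array 2 in all 17 genes, by a median of 0.31. In the knockout arrays the list did not differ in this way: the median was 0.20 and only Ppbp was called lower in both genotypes. The difference between genotypes itself was called for 0 of the 17 genes by limma, and the smallest adjusted p was 0.061. By limma's unadjusted p, 12 of the 17 were under 0.05, beside 2247 of all 18194 genes.

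Genes of vessels and connective tissue were mostly higher in fetal liver. Of 16 endothelial genes 14 were higher, 1 lower and 1 not called (median 1.38). Lyve1, which liver sinusoids and lymphatics express, was 9.66 and 9.71 in fetal liver and 5.06 and 4.87 in marrow (difference 4.72 ± 0.11), Cdh5, the junction cadherin of endothelium, differed by 2.61 ± 0.16, and Stab2, a scavenger receptor of sinusoids, by 1.5 ± 0.14. Pecam1, which leukocytes and platelets also carry, was lower (-0.82 ± 0.14). Of 14 liver mesenchyme genes 11 were higher (median 1.98), led by the collectins Colec10 (5.95 ± 0.15) and Colec11 (5.92 ± 0.14) and by Lhx2, a factor of stellate cells (3.70 ± 0.14). Of 16 basement membrane genes 12 were higher and 0 lower (median 1.17), with Nid1 at 2.99 ± 0.13, Col4a1 at 2.16 ± 0.22 and Col18a1 among them. Among 40 collagen genes 19 were higher and 3 lower, and the fibrillar Col3a1 was 12.47 and 12.54 in fetal liver and 7.54 and 7.06 in marrow (difference 5.21 ± 0.20).

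Stromal genes of marrow were a mixture. Of 17 members 5 were lower (29.4%, against 19.2% of all genes), 9 higher (52.9%, against 30.5% of all genes) and 3 not called. Adipoq, made by fat cells and by the marrow's adipocyte precursors, was 3.41 and 3.11 in fetal liver and 9.80 and 9.24 in marrow (difference -6.26 ± 0.23), and Ibsp, a bone matrix protein, was 2.56 and 2.83 in fetal liver and 8.34 and 7.88 in marrow (difference -5.42 ± 0.16). Lepr, which marks marrow stroma, differed by -1.43 ± 0.19. The niche factors went opposite ways: Kitl, the stem cell factor, was 10.34 and 10.21 in fetal liver and 8.82 and 8.27 in marrow (difference 1.73 ± 0.18), while the chemokine Cxcl12 was 9.30 and 9.29 in fetal liver and 10.36 and 9.93 in marrow (difference -0.85 ± 0.17). Its receptor Cxcr4, which holds leukocytes in marrow, was 5.96 and 6.53 in fetal liver and 10.66 and 10.69 in marrow (difference -4.43 ± 0.16). Of 15 homing and retention genes 8 were lower (53.3%, against 19.2% of all genes) and 4 higher (26.7%, near the 30.5% of all genes). Type I collagen (Col1a1 -0.25 ± 0.18, Col1a2 0.01 ± 0.13) was not called.

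Cell division genes were bright in both tissues. Of 40 mitosis and DNA replication genes 39 were at 8 or more in both and 39 (97.5%) differed by less than 2-fold, beside 84.5% of all autosomal genes at that level. Mitosis genes leaned towards marrow (11 of 19 or 57.9% lower, 1 higher, median -0.46). Replication genes did not (9 of 21 or 42.9% higher, 5 or 23.8% lower, median 0.22). Of all genes, 30.5% were higher and 19.2% lower. Mki67, present in all cycling cells, was 12.89 and 13.01 in fetal liver and 13.45 and 13.45 in marrow (difference -0.50 ± 0.10), and Ccnb2, a mitotic cyclin, differed by -0.85 ± 0.10. Mcm2, of the replication helicase, was 12.34 and 12.36 in fetal liver and 11.51 and 11.58 in marrow (difference 0.80 ± 0.10), while Pcna, the polymerase clamp, was lower (-0.53 ± 0.10). Of 47 ribosomal protein genes 11 were higher (23.4%, under the 30.5% of all genes) and 36 not called. Their median was 0.14, and -0.07 when arrays are centred on the mean of these genes. The family's largest difference was that of Rps4l (2.81 ± 0.10), a copy of Rps4x. Of 17 commonly used reference genes 3 were higher and 3 lower, a share (35.3%) under that of all genes (49.7%). None passed 2-fold by its chosen probe set, with Gapdh at 0.84 ± 0.10 and Actb at -0.47 ± 0.09. The other Actb probe sets gave 0.43, -0.53, -0.91 and -1.31.

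Immediate early genes, which are induced within minutes of a stimulus and can respond to dissociation, were lower in fetal liver in 15 of 20 cases and higher in 3. Fos was 6.22 and 6.10 in fetal liver and 10.84 and 10.70 in marrow (difference -4.61 ± 0.20), and Dusp2 (-3.33 ± 0.17), Klf2 (-3.23 ± 0.13), Fosl2 (-3.14 ± 0.13) and Zfp36 (-3.03 ± 0.16) followed. Egr1 (0.96 ± 0.18) and Ier3 (1.13 ± 0.17) were higher, as was Egr3 (0.30 ± 0.11), whose other probe set gave 3.27 in fetal liver and 6.79 in marrow. Of 18 inflammatory mediators 11 were lower and 1 higher, with the chemokines Ccl6 (-4.43 ± 0.11) and Ccl3 (-3.22 ± 0.20), the inhibitor of NF-kB Nfkbia (-2.76 ± 0.14) and Il1b (-2.11 ± 0.25) among the lower ones. How the cells were dispersed went with the groups, so its effect and that of tissue cannot be told apart here.

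Glycolytic enzymes were mostly higher, with isoforms going opposite ways. Of 15 members 9 were higher, 3 lower and 3 not called. Pfkl, the liver form of phosphofructokinase, was 8.92 and 9.20 in fetal liver and 6.19 and 6.30 in marrow (difference 2.81 ± 0.14), and the platelet form Pfkp was 6.35 and 6.85 in fetal liver and 8.14 and 7.93 in marrow (difference -1.44 ± 0.17). Hk3, the hexokinase of leukocytes, was lower (-2.22 ± 0.11), and Hk1 was not called (0.01 ± 0.11). Tpi1 (1.74 ± 0.09), Ldha (1.15 ± 0.10) and the liver and red cell pyruvate kinase Pklr (2.72 ± 0.11) were higher. Among 39 serpins 13 were higher (33.3%) and 4 lower (10.3%), the former near the 30.5% and the latter under the 19.2% of all genes, ranging from Serpinb1a, which restrains neutrophil proteases (-3.83 ± 0.13), to Serpina1b. Among 41 mitochondrial carriers 14 were higher (34.1%) and 7 lower (17.1%), close to the shares of all genes. Slc25a15 (2.49 ± 0.10) and Slc25a13 (2.40 ± 0.11), which carry ornithine and aspartate for the urea cycle, stood at the top and Slc25a51, the NAD carrier (-1.88 ± 0.11), at the bottom.

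The same tissue comparison in the knockout arrays uses means of other arrays than the wild-type one. Both come from the same fit, which shares its estimate of the spread, so their calls are not independent. The knockout comparison called 8652 of 18194 genes (47.6%). Of the 8703 autosomal genes called in wild type, 6926 (79.6%) were called the same way in knockout and 14 the opposite way, and these 6926 were 83.2% of the autosomal genes called in knockout. Of 3299 called at 2-fold or more, 2711 were also called at 2-fold or more the same way in knockout. The differences of Alb (10.08 and 10.01), Hbb-y (9.18 and 9.79), Igf2 (7.05 and 6.76), Chil3 (-10.33 and -9.87) and Ms4a1 (-7.79 and -7.15) were close in wild type and knockout. Erythroid genes in knockout read as follows: Fech differed by -0.16, Klf1 by 0.22 and Tfrc by 0.19 in knockout, while Slc2a1 (5.11), Myb (-1.77) and Bpgm (-2.55) differed there too. By list, all 16 hepatocyte plasma protein genes, all 14 cholesterol genes, all 16 secondary granule genes and all 14 pro-B and pre-B genes were called the same way in knockout, as were 12 of 15 imprinted genes, 14 of 16 endothelial genes and 16 of 19 interferon-stimulated genes. Across autosomal genes, which are not independent of each other, the 2 sets of differences had a Pearson correlation of 0.969. The interaction of tissue and genotype was called for 5 genes (0.0275%), of which Lgr4 was the only autosomal one, the others being sex-linked. Without marrow array 2 of the wild type the interaction count was 15, with a filter on low values 12, and with an intensity trend in the variance 54. Lgr4, a receptor for R-spondins, was 9.85 and 9.71 in fetal liver and 7.72 and 7.69 in marrow in wild type (difference 2.07 ± 0.10) and differed by 4.26 in knockout (interaction adjusted p = 0.000458). The genotypes' fetal liver arrays lay close together (9.76 and 9.86 in knockout), and the knockout marrow arrays read 5.53 and 5.58, under those of the wild type.

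**Figure D4:**
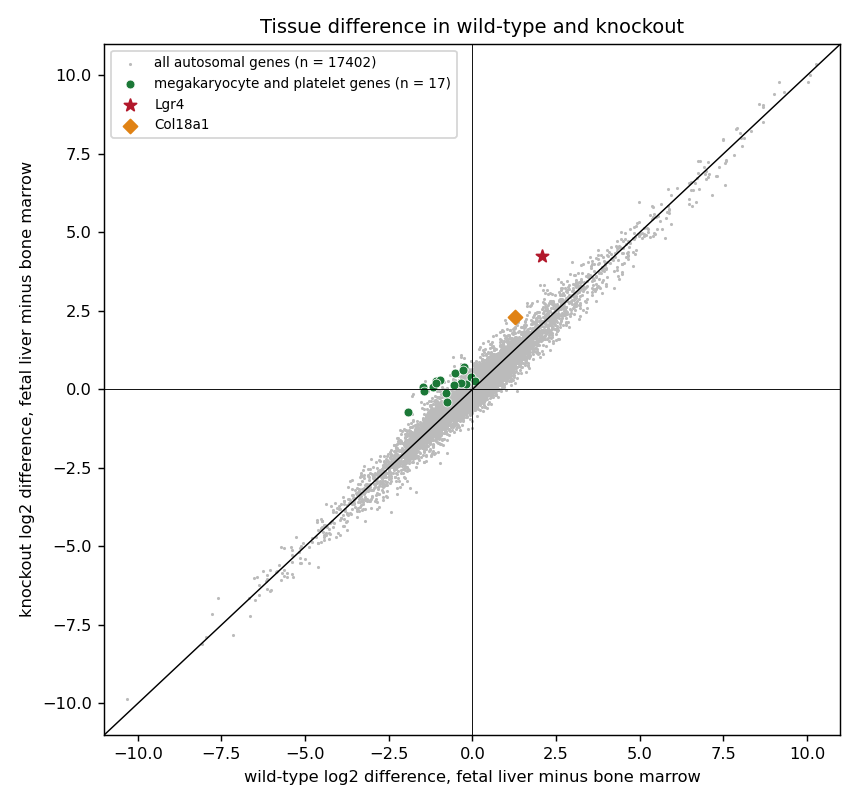
Log2 difference between fetal liver and bone marrow in knockout arrays (vertical axis) against that in wild-type arrays (horizontal axis) for 17402 autosomal genes, with the line of equal difference. Most genes lie along the line; Lgr4 lies above it at 2.07 and 4.26, Col18a1 (1.27 and 2.31) nearer to it, and the 17 megakaryocyte and platelet genes lie to its left.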

How the data were processed

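Total RNA was labelled with biotin and read on Affymetrix arrays, 1 per pool. Per the submitters' processing notes the authors used RMA (no version is named). The deposited values are intensities on a linear scale with no negative values (array medians 40.8 to 42.6), and log2 was taken here. Of 45101 probe sets, 34958 named 1 gene in the platform annotation. These gave 18194 genes after the brightest was kept per gene, of which 17402 were autosomal by RefSeq. Differences were tested with limma 3.58.1 in R 4.3.3 (lmFit and eBayes, 1 mean for each of 4 groups over all 8 arrays, no filter on low values, two-sided) with Benjamini-Hochberg adjustment over all 18194 genes at 0.05, and the fit was tested on simulated data. With 2 arrays a group (4 residual degrees of freedom in all) their number limits the precision, and p-values measure only the spread between these pools. The gene lists, and the comparison itself, were chosen with earlier results of these data known. Genes to name were drawn from those with the 15 largest differences each way, the 6 largest and 2 smallest of each list and the 3 highest and 3 lowest of each family. The whole lists of globins, imprinted genes and fetal regulators were added, and not every gene so drawn is printed. The 15 each way were taken among called autosomal genes with a mean of 8 or more in a tissue, leaving out clone-type symbols. Further list members, and Rian, Fabp1, Serpina1c and Cd72, were named after their values were seen. List genes without such a probe set were not analysed here. Alternatives covered the filter, the probe set rule, centring, the variance model, array weights, thresholds, a replicate block, the wild-type arrays alone and each array left out.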

Additional observations from a re-analysis of the deposited data

Results flagged for a closer look

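The difference between fetal liver and marrow was itself different in wild-type and knockout arrays for 5 genes, by the interaction of tissue and genotype in limma. Of these, 4 are sex-linked: the wild-type minus knockout difference was 6.26 for Xist (adjusted p = 6.5e-06), -6.44 for Eif2s3y (adjusted p = 3.1e-05), -4.0 for Kdm5d (adjusted p = 0.000102) and -4.24 for Uty (adjusted p = 0.000494). In wild type Xist was bright in both fetal liver arrays and the Y-linked genes were dim, and the tissues of the knockout did not separate in this way. The fifth was Lgr4, whose difference was 2.07 in wild type and 4.26 in knockout, an interaction of -2.18 (adjusted p = 0.000458).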

How the results depend on the processing

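Tested against a 2-fold change rather than 0, 2034 genes were called (1097 higher, 937 lower), 1947 of them autosomal, and 1953 in knockout. Centring on ribosomal protein genes left 3669 genes higher, as printed above. The count of interaction genes was 12 with a filter on low values, 54 with a trend in the prior variance and 15 without wild-type bone marrow replicate 2. Over the fits that left out each array in turn, genes called ranged from 7381 to 9418, higher from 4444 to 5804, lower from 2921 to 3614, autosomal from 7094 to 9054, knockout from 6879 to 8741 and interaction from 5 to 15. With the replicate number as a replicate block, 5417 genes were higher and 3399 lower. Deviations of same-numbered arrays correlated at -0.05 between the wild-type tissues, so the numbers do not pair the samples. Of 217 called genes checked among those named in the text, 205 kept their direction and call under every alternative except the 2-fold test. The mean of all probe sets turned the sign of the difference of Egr3 (-1.61), the difference of Hoxa9 (-1.06), the difference of Id2 (-0.35), the difference of Irf5 (-0.060) and the difference of Meis1 (-0.0051), genes whose probe sets differ in sign or size. Among autosomal genes called at 2-fold or more, 87.9% of their 3511 other probe sets had the same sign. The share was 98.3% for the 806 of these at 8 or more in a tissue, a level that the brighter tissue alone can meet. Signals near the dim end of the scale limit folds, since a fold against such a level depends on the background of that probe set.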
